A study of Mus musculus with 7 samples.

Results

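The genes described here encode the zinc metalloproteases that cut the extracellular matrix and cell surface proteins, and the tissue inhibitors that block them. They were chosen by symbol from the deposited table of gene expression: Mmp, Adam and Adamts followed by a number, and Timp1 to Timp4. The rule found 79 of 24346 genes, namely 23 Mmp, 33 Adam, 19 Adamts and 4 Timp genes. Expression was measured by RNA-seq of primary neurospheres, floating spheres of neural stem cells and their progeny. Each culture came from the hippocampus of a single C57/BL6 mouse, 2 months old by the study's methods. The 3 mice KO_117, KO_214 and KO_218 (Med23 CKO) carried Nestin-CreER and the floxed Med23 alleles, and the 4 littermate controls (WT_215, WT_116, WT_213 and WT_220), labelled wild type, were Med23 flox/+ or Med23 flox/flox by the study's methods. Both groups received tamoxifen by gavage at 200 mg/kg once a day for 5 days, which turns on CreER. The labels place this treatment in adult mice of 2 months, with 3 to 4 weeks of recovery after it. The study's methods instead place it earlier for cultures, so the time from treatment to culture is not settled. Cre was active where the Nestin promoter was, so cells in a culture that never passed through a Nestin-expressing state kept Med23.

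Matrix metalloproteases (Mmp) are made as inactive precursors. Most are secreted and others are anchored in the membrane, and between them they digest collagens, gelatin, laminins and proteoglycans. Adam proteases sit in the membrane and release the outer part of other membrane proteins: Adam10 makes the first regulated cut in the Notch receptor and Adam17 releases tumor necrosis factor and EGF family ligands. Adamts proteases are secreted, and several of them cut the lecticans, the large proteoglycans of brain matrix. The 4 Timps bind the active site of these enzymes, with Timp3 reaching the widest range of Adam and Adamts proteases.

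Values are FPKM, fragments scaled to transcript length and to the mapped fragments of the library, and fold changes are differences in mean log2(FPKM + 1), Med23 CKO minus control, which understate the change of low genes; SE is their standard error. Control values are listed in the order WT_215, WT_116, WT_213, WT_220 and Med23 CKO values in the order KO_117, KO_214, KO_218. Between 16841 and 18113 genes had a value above 0 in a library, and their sequencing depth is not known. Med23 had 11.2 ± 1.29 FPKM (SD, n = 4) in controls and 9.12 ± 0.934 FPKM (SD, n = 3) in Med23 CKO. The fold change was -0.26 (SE 0.18, exact permutation p = 0.0571), and all Med23 CKO values lay below all control values, but Med23 did not pass the test. This value covers the whole gene and not only its deleted part. All 10 markers fixed for neural stem and progenitor cells were above 0, and their summed level ranged from 1887 to 3853 FPKM in controls and from 2066 to 3851 FPKM in Med23 CKO. The cultures also held RNA of other cells. The 15 markers of microglia and macrophages, the resident immune cells of the brain, summed to 48.0 to 330.0 FPKM in controls, but to 50.8, 1534 and 256 FPKM in Med23 CKO. The 10 endothelial markers summed to 11.4 to 74.1 FPKM in controls and 7.33 to 137.8 FPKM in Med23 CKO. The 10 markers of mural cells and fibroblasts summed to 14.5 to 92.8 FPKM in controls and 10.7 to 363.8 FPKM in Med23 CKO. No marker of any of these lists was at 0 in every library. KO_214 held the highest value of 13 of the 15 microglial, 10 of the 10 endothelial and 10 of the 10 mural and fibroblast markers. KO_214 therefore stands apart in these marker lists, and results that rest on it are given with and without it. In such bulk samples fewer cells of a type and less RNA per cell cannot be told apart.

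Few of the tested protease genes passed the test. Of the 79 members, 48 had a mean of at least 0.5 FPKM over the 7 libraries and were tested with limma, a moderated linear model fitted on all 14151 genes that passed this filter. At an unadjusted p under 0.05, 0 of the 48 were higher in Med23 CKO, where 0.502% of all genes tested were, and 2 (4.17%) were lower, Adamts19 and Adam11, where 0.996% of all genes were. At a Benjamini-Hochberg adjusted p under 0.05, limma called 0 of the 48 members and 0% of all genes. All 3 Med23 CKO values lay below all 4 control values for 1 member (2.08%), Adamts19, near the 1.53% of all genes tested. They lay above them for 0 members, against 0.784% of all genes. The mean was higher in Med23 CKO for 29 of the 48 and lower for 19, where 43.8% of all genes tested were higher. Without KO_214 it was higher for 14 and lower for 34, and the share over all genes was not counted. The median fold change on the log2 scale was 0.06 over the 48 members and -0.03 over all genes tested. Without KO_214 these medians were -0.17 and -0.06. Of the 48, 5 (Adamts12, Mmp1a, Mmp28, Mmp8 and Mmp9) passed the filter with a control mean under 0.5 FPKM, and Adamts19 and Adamts3 did so with a Med23 CKO mean under it.

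These counts changed with single libraries. Without KO_214, 4 members were lower at an unadjusted p under 0.05 by limma (Adam11, Adam15, Adamts14 and Adamts19) and 1 was higher (Adamts5), where 1.45% of all genes tested were lower and 0.551% higher. Without KO_117, 2 were higher (Mmp3 and Mmp19) and 2 lower, against 2.50% and 2.90% of all genes. Without KO_218, 1 was higher (Adamts12) and 1, Adamts19, was lower, against 0.982% and 0.495% of all genes. The counts over all genes thus moved with the same libraries. Genes called in either direction numbered 212 with all libraries, 283 without KO_214, 209 without KO_218 and 764 without KO_117. With weights for each library in limma, KO_117 had the lowest weight (0.301) and KO_214 the next lowest (0.441). KO_214 held the highest of the 7 values for 23 of the 48 members (47.9%), and for 25.4% of all genes tested. The map of values shows where these high values lie.

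**Figure D1:**
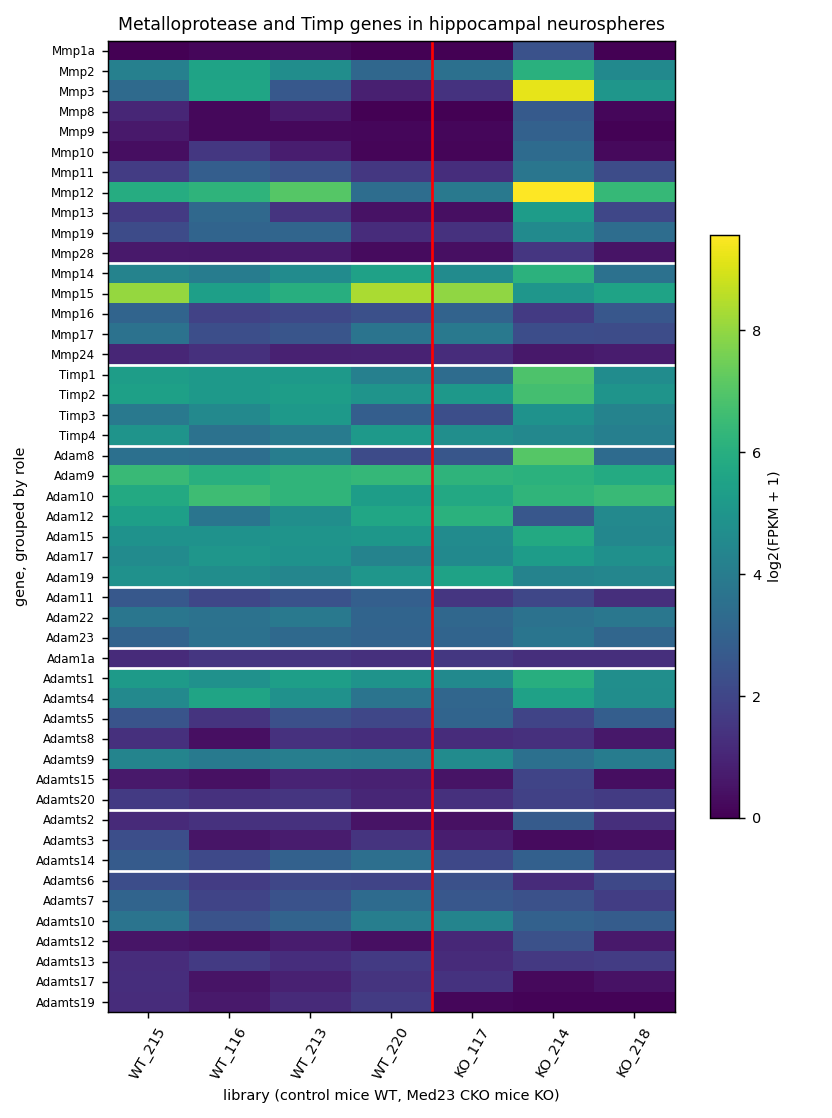
Values of the 48 tested genes (rows, grouped by role, white lines between roles) in the 7 libraries (columns, controls left of the red line and Med23 CKO right of it); color gives log2(FPKM + 1). The secreted Mmp genes at the top are brightest in KO_214, and the last row, Adamts19, is dark in all 3 Med23 CKO libraries.

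Adamts19 was the 1 member whose groups did not overlap, a share (2.08%) near that over all genes tested (1.53%). It is a little studied secreted protease of the Adamts family. It had 1.31, 0.593, 1.20 and 2.17 FPKM in controls, and 0.109, 0.0587 and 0.0554 FPKM in Med23 CKO. All Med23 CKO values were thus below the lowest control value, and the control mean was 17.7 times the Med23 CKO mean. The fold change was -1.07 on the log2(FPKM + 1) scale (SE 0.26, limma unadjusted p = 0.00383, adjusted p = 0.9999). A two-sided exact permutation test over samples gave p = 0.0571, where the smallest p this design allows is 0.0286. The fold change ran from -1.23 to -0.90 when single libraries were omitted, and was -1.06 without KO_214. With a pseudocount of 0.1 it was -2.92. The gene lies on chromosome 18 of GRCm38 from 58835992 to 59053682. Its level was low, and its counting error cannot be judged without the depth. Its Med23 CKO mean was under 0.5 FPKM, so it entered the test through the controls and its direction was fixed by the filter.

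Adam11, a brain-enriched Adam that lacks protease activity and acts in cell adhesion at synapses, was the other member called lower before adjustment. It had 5.28, 3.06, 4.25 and 6.41 FPKM in controls. In Med23 CKO it had 1.88, 3.08 and 1.46 FPKM. The groups overlapped by 1 library, since KO_214 was just above WT_116. The difference was -0.87 (SE 0.29, limma unadjusted p = 0.0175, adjusted p = 0.9999, exact permutation p = 0.0857), and -1.08 without KO_214. Without KO_218 it was -0.71 and no longer passed (limma unadjusted p = 0.0671). The gene lies on chromosome 11 of GRCm38 from 102761413 to 102780263.

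Adam22 and Adam23, the other Adams of the synapse without protease activity and receptors of the Lgi proteins, did not pass the test. Adam22 had 12.5, 11.1, 13.6 and 7.47 FPKM in controls and 8.24, 11.2 and 12.7 FPKM in Med23 CKO. Adam23 had 7.32, 10.9, 8.54 and 7.26 FPKM in controls and 7.46, 12.2 and 7.93 FPKM in Med23 CKO. For both genes the values of the groups lay in the same range.

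**Figure D2:**
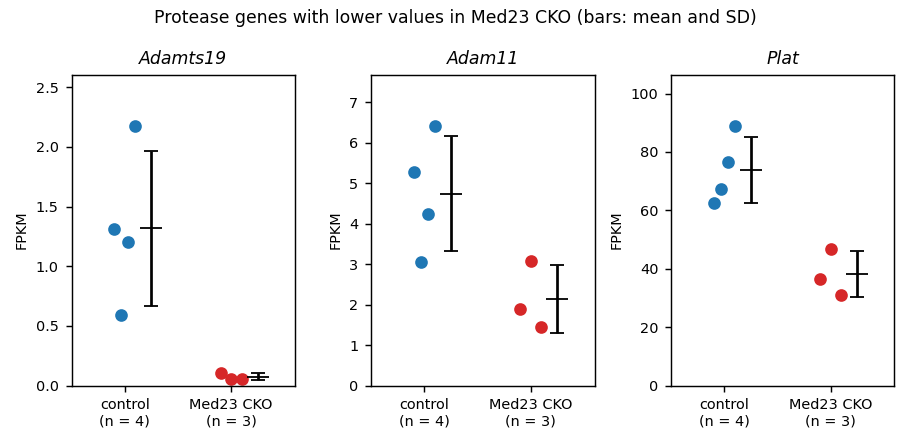
FPKM of Adamts19, Adam11 and Plat (plasminogen activator) in each library of the control (blue) and Med23 CKO (red) groups; the black mark and bar give mean and SD. The Med23 CKO points lie below every control point for Adamts19 and Plat, and for Adam11 the highest Med23 CKO value, 3.08 FPKM, is level with the lowest control value, 3.06 FPKM.

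Among the role groups, the secreted Mmps varied most between libraries, and low and intermediate values were found in both genotypes. Of the 16 genes, 14 had their highest value in KO_214, the exceptions being Mmp20 and Mmp21. Of the 11 that were tested, 0 passed in either direction. Mmp1a, Mmp8, Mmp9 and Mmp28 had a control mean under 0.5 FPKM and entered the test through KO_214, so their direction was fixed by the filter. The mean was higher in Med23 CKO for 11 of 11 genes, where 43.8% of all genes tested were higher, with a median fold change of 0.71. Without KO_214 it was higher for 1 and lower for 10, with a median of -0.37. Without KO_117 the median was 1.12. The median SD of log2(FPKM + 1) over the 7 libraries was 1.05 for these genes and 0.37 for all genes tested.

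Mmp12, macrophage elastase, had the highest level among the secreted Mmps in controls. It had 59.6, 73.5, 131.6 and 9.57 FPKM in controls, and 13.4, 756.6 and 84.5 FPKM in Med23 CKO. Mmp3, stromelysin, which also activates other Mmps, had 8.93, 48.6, 5.15 and 0.779 FPKM in controls and 1.66, 587.0 and 31.7 FPKM in Med23 CKO. KO_214 was far above the other libraries for both genes, and WT_220 and KO_117 were the lowest, so each group held low libraries. The fold change was 0.96 (SE 1.37, exact permutation p = 0.571) for Mmp12 and 2.12 (SE 1.82, exact permutation p = 0.4) for Mmp3. Without KO_214 they were -0.51 and 0.12. Without KO_117 the fold change of Mmp3 was 4.02 (limma unadjusted p = 0.0318).

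Mmp13, a collagenase, had 2.08, 8.32, 1.71 and 0.386 FPKM in controls and 0.309, 38.0 and 3.10 FPKM in Med23 CKO. Mmp9, gelatinase B, which has been studied in synaptic plasticity, had 0.586, 0.147, 0.154 and 0.121 FPKM in controls and 0.126, 6.80 and 0.0266 FPKM in Med23 CKO. Apart from KO_214, the values of Mmp9 were all under 1 FPKM. The difference was 0.88 (SE 1.14, exact permutation p = 0.571) for Mmp13 and 0.75 (SE 0.68, exact permutation p = 0.686) for Mmp9, and without KO_214 it was -0.48 and -0.20. Mmp10 (stromelysin-2) reached 9.21 FPKM, Mmp8 (neutrophil collagenase) 5.56 FPKM and Mmp1a (interstitial collagenase) 4.29 FPKM in KO_214, and at most 1.96, 1.04 and 0.171 FPKM in any other library. Mmp1a and Mmp1b are related genes, and the division of reads between them was not examined. Mmp2, gelatinase A, had 16.8, 45.6, 25.05 and 8.21 FPKM in controls and 10.5, 65.8 and 22.3 FPKM in Med23 CKO, and its groups overlapped.

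These genes include 10 that form a cluster on chromosome 9 of GRCm38, from 7272514 to 7699585, in the order Mmp13, Mmp12, Mmp1b, Mmp3, Mmp1a, Mmp10, Mmp8, Mmp27, Mmp20 and Mmp7. Of the 10 genes, 9 had their highest value in KO_214, the exception being Mmp20, which encodes a tooth enamel protease and was above 0 in WT_116 alone (0.0455 FPKM). Levels within the cluster differed widely: Mmp12 and Mmp3 carried most of its FPKM, and Mmp1b, Mmp20, Mmp27 and Mmp7 were too low to be tested. The exons of Mmp12 and Mmp1b share 157 bases on opposite strands.

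**Figure D3:**
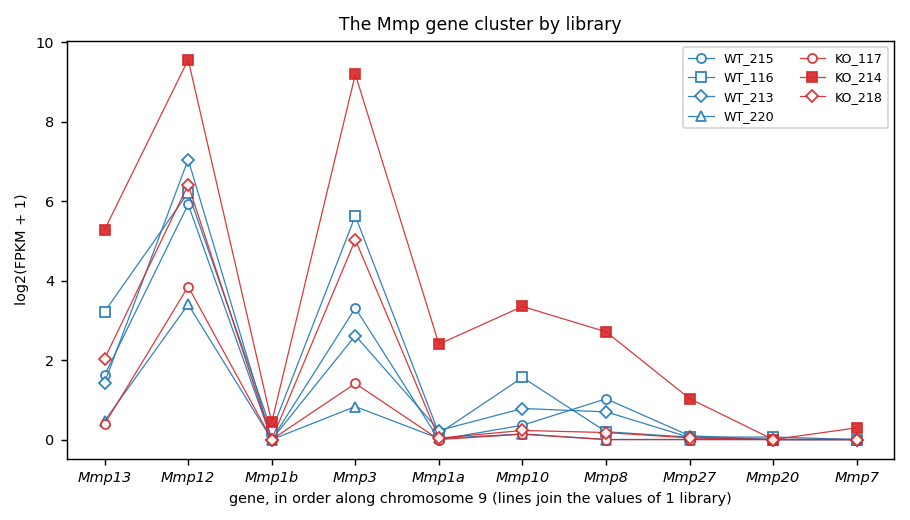
Values (log2(FPKM + 1), vertical axis) of the 10 Mmp genes of chromosome 9 in their order along the chromosome, with a line for each library (controls blue, Med23 CKO red, KO_214 filled). KO_214 lies above the other libraries for every gene except Mmp20, while the open red symbols of KO_117 and KO_218 lie among the control symbols or at the lowest values.

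Many promoters of this cluster share a short sequence, and those of its 5 tested genes that hold it are printed here since these genes were high together in KO_214. TGAGTCA, searched on both strands (TGACTCA on the other), is the motif of AP-1, the Fos and Jun transcription factors. Promoter windows from RefSeq (GRCm38.p6, 250 bases before to 50 after the transcript start) were found for 49 of the 79 members. The motif was in the window of 7 of the 10 cluster genes, of 3 of the 39 other members (7.69%) and of 5.95% of the 27025 genes with a window. In the 5 windows shown, its first base was 35 to 73 bases before the start. Below are the 120 bases before and 20 after the start, 5′ to 3′ on the forward strand, with the motif in capitals.
Mmp13 (chr9:7272394-7272533): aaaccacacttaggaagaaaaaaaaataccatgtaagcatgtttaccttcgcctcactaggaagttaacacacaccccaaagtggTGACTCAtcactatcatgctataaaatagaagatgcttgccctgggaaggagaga
Mmp12 (chr9:7347254-7347393): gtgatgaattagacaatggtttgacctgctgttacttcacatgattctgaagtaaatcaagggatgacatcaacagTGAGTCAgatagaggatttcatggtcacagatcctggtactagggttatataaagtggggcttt
Mmp3 (chr9:7445702-7445841): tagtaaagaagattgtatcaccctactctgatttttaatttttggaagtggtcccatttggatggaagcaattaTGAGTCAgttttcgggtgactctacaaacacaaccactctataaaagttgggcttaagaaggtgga
Mmp1a (chr9:7464021-7464160): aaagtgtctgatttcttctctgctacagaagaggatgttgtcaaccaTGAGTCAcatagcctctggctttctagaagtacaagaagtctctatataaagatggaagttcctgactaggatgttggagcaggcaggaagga
Mmp10 (chr9:7502222-7502361): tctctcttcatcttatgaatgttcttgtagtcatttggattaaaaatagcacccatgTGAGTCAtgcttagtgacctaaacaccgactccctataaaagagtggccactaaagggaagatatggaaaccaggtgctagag
The start used for Mmp12 lies inside the annotated span of the gene, and the window at its annotated start did not hold the motif. The window of Mmp1b and a window of Mmp7 also held the motif. Another window of Mmp7 and those of Mmp8, Mmp27 and Mmp20 did not hold these letters. A match describes the sequence and does not show that a factor binds it.

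Summed over the 16 secreted Mmps, the level was 95.8, 192.8, 178 and 22.7 FPKM in controls, and 29.5, 1512 and 155.6 FPKM in Med23 CKO. The summed microglial markers were 118, 245, 330.0 and 48.0 FPKM in the same controls and 50.8, 1534 and 256 FPKM in the same Med23 CKO mice. Both sums were highest in KO_214 and lowest in WT_220 and KO_117, and the part of microglia in the Mmp levels was not tested. Cx3cr1 and P2ry12 of the microglial list were highest in WT_213 and WT_116 instead. Mural cell and fibroblast markers moved in the same way, as the plot of sums shows.

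**Figure D4:**
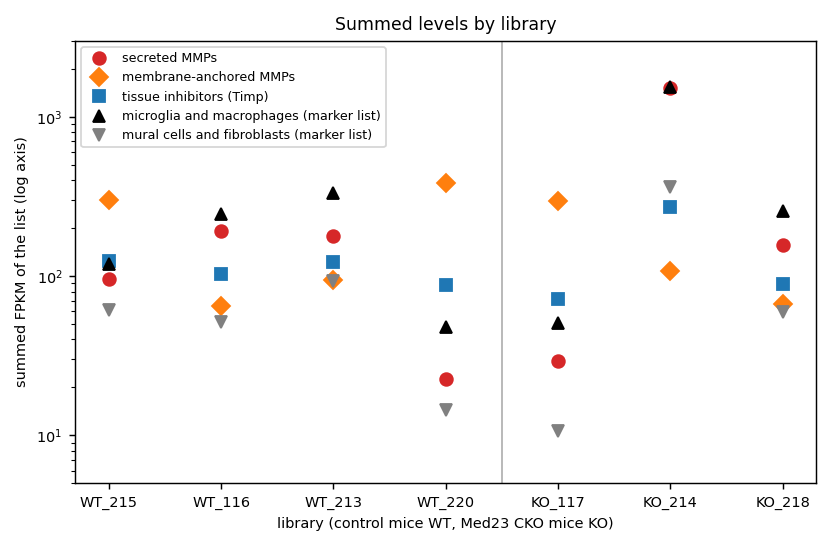
Summed FPKM (log axis) of the secreted and the membrane-anchored Mmps, the 4 Timps and marker lists of microglia and macrophages and of mural cells and fibroblasts, in each library. The secreted Mmps and both marker lists peak in KO_214 and are lowest in WT_220 and KO_117, whereas the sum of the membrane-anchored Mmps, most of it Mmp15 in WT_215, WT_220 and KO_117, is highest in these 3 libraries.

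The membrane-anchored Mmps did not share 1 order of the libraries: Mmp14 and the untested Mmp23 and Mmp25 were highest in KO_214, Mmp15 in WT_220, Mmp16 in WT_215, Mmp17 in KO_117 and Mmp24 in WT_116. Of 7 genes, 5 were tested and 0 passed in either direction, with a median fold change of -0.18. Mmp15 (MT2-MMP) had the highest control level of all Mmps, with 262, 41.2, 62.1 and 324 FPKM in controls and 251.7, 31.2 and 45.8 FPKM in Med23 CKO. It was high in WT_215, WT_220 and KO_117 and low in the other 4 libraries, so both groups held high and low values. Its fold change was -0.76 (SE 0.95, exact permutation p = 0.543), -0.18 without KO_214 and -1.66 without KO_117. Mmp17 (MT4-MMP) had 11.0, 3.93, 4.70 and 11.8 FPKM in controls and 13.5, 3.79 and 3.66 FPKM in Med23 CKO, with the same libraries high. WT_215, WT_220 and KO_117 held the 3 highest values for 9 of the 48 members (18.8%) and for 26.2% of all genes tested, a pattern counted after the values of Mmp15 were seen. The members besides Mmp15 and Mmp17 were Adam12, Adam19, Adamts3, Adamts7, Adamts10, Adamts17 and Timp4. Cell type markers did not move together across these libraries. The summed neural stem and progenitor markers were highest there, at 3432, 3853 and 3851 FPKM against 1887 to 3135 FPKM in the others, with most of the sum from Fabp7 and Vim. Gfap and Prom1 of the same list were lowest there, Gfap at 39.2, 17.8 and 19.4 FPKM. Of the oligodendrocyte lineage markers, Olig1 was highest there, at 1361, 1943 and 1586 FPKM against 214.5 to 602.7 FPKM in the others, as were Olig2 and Cspg4, while Mbp and Mog were lowest there. The part of these cells in the levels was not tested. Mmp14 (MT1-MMP), which activates the precursor of Mmp2, had 18.4, 15.3, 23.3 and 43.1 FPKM in controls and 23.6, 69.7 and 11.0 FPKM in Med23 CKO. Its highest value was in KO_214 and its lowest in KO_218, both Med23 CKO. The fold change of 0.19 (SE 0.61) was -0.49 without KO_214.

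The 4 Timps did not differ beyond their spread. Timp1, an inhibitor induced in inflammation, had 38.8, 34.6, 34.1 and 17.2 FPKM in controls and 9.37, 118 and 24.0 FPKM in Med23 CKO. Timp2, which inhibits Mmp2 and also takes part in its activation, had 42.1, 35.05, 38.6 and 29.8 FPKM in controls and 33.1, 103.9 and 30.1 FPKM in Med23 CKO. In both genes KO_214 was the highest library, and the other Med23 CKO values lay within or under the control values. The fold change was 0.03 (SE 0.76, exact permutation p = 1) for Timp1 and 0.38 (SE 0.42, exact permutation p = 0.686) for Timp2. Without KO_214 they were -0.94 and -0.19, neither of which passed the test.

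Timp3, which is bound to the matrix, had 13.7, 21.6, 34.1 and 6.26 FPKM in controls and 3.95, 28.5 and 18.3 FPKM in Med23 CKO. Timp4 had 29.7, 11.1, 15.0 and 34.3 FPKM in controls and 25.2, 21.2 and 16.3 FPKM in Med23 CKO. The groups overlapped for both, with fold changes of -0.27 (SE 0.72) and 0.01 (SE 0.40), and that of Timp3 was -0.80 without KO_214. In the annotation (GENCODE M21, GRCm38) Timp1 lies within Syn1, Timp3 within Syn3 and Timp4 within Syn2, the synapsin genes, each on the opposite strand. Of the exonic bases, 0% of Timp1, 21.3% of Timp3 and 1.53% of Timp4 were shared with the synapsin gene. The library kit named in the methods is not described as keeping strand, so reads in the shared part cannot be told apart. Syn3 itself had a fold change of -0.50 (SE 0.19, limma unadjusted p = 0.0345).

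The summed RNA level of the secreted Mmps relative to that of the Timps spanned a wide range. This ratio compares RNA and does not measure protease activity. In KO_214, Mmp12 and Mmp3 held 756.6 and 587.0 of the 1512 FPKM of the secreted Mmps. The summed FPKM of the secreted Mmps was 0.771, 1.88, 1.46 and 0.259 times that of the 4 Timps in controls, and 0.411, 5.56 and 1.75 times in Med23 CKO. The ratio was highest in KO_214 and lowest in WT_220, and that of KO_117 was below that of 3 controls.

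The widely expressed sheddases did not pass the test. Adam10 had 55.5, 96.1, 76.2 and 39.1 FPKM in controls and 53.3, 76.0 and 88.8 FPKM in Med23 CKO, a fold change of 0.17 (SE 0.33, exact permutation p = 0.743). Adam17 had 23.5, 31.5, 28.4 and 18.5 FPKM in controls and 22.3, 38.0 and 26.9 FPKM in Med23 CKO, a fold change of 0.18 (SE 0.25). Adam9, the member of the family with the highest control level, had 88.3, 64.6, 75.6 and 80.9 FPKM in controls and 73.4, 68.1 and 56.5 FPKM in Med23 CKO. Its highest value was 1.56 times its lowest, and its fold change of -0.22 (SE 0.17, exact permutation p = 0.229) did not pass the test. With weights for each library in limma, Adam9 was lower at an unadjusted p of 0.0267.

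Other catalytic Adams varied more. Adam12 (meltrin alpha) had 41.3, 12.1, 25.2 and 49.1 FPKM in controls and 67.3, 5.00 and 21.6 FPKM in Med23 CKO, so the highest and the lowest library were both Med23 CKO. Its fold change of -0.48 (SE 0.82) was 0.43 without KO_214 and -1.33 without KO_117. Adam8, which is expressed in leukocytes, had 10.6, 10.1, 15.4 and 3.61 FPKM in controls and 4.94, 130.2 and 9.06 FPKM in Med23 CKO. KO_214 alone was above the controls, and the fold change of 1.0 (SE 1.03, exact permutation p = 0.571) was -0.36 without it. Adam15 had 28.0, 28.3, 30.3 and 32.7 FPKM in controls and 23.3, 54.9 and 20.5 FPKM in Med23 CKO. Its fold change was 0.00 (SE 0.33) over all libraries and -0.43 without KO_214 (limma unadjusted p = 0.0445). An antisense gene shares 20.6% of its exonic bases. Adam19, named meltrin beta, had 27.5, 24.8, 19.8 and 31.7 FPKM in controls and 45.0, 18.3 and 19.9 FPKM in Med23 CKO, with overlapping groups.

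Among the 7 Adamts genes that cut proteoglycans, all were tested and 0 passed in either direction. Adamts1 had 36.2, 28.0, 40.4 and 29.2 FPKM in controls and 22.1, 63.4 and 25.3 FPKM in Med23 CKO. Adamts4, a strong cutter of lecticans, had 21.8, 47.6, 27.4 and 11.97 FPKM in controls and 7.93, 43.1 and 24.5 FPKM in Med23 CKO. Adamts9 had 18.7, 14.2, 16.0 and 15.1 FPKM in controls and 23.6, 10.5 and 15.1 FPKM in Med23 CKO. These 3 genes had the highest control levels of the family, and their fold changes of -0.0048 (SE 0.36), -0.23 (SE 0.61) and -0.03 (SE 0.27) were within the spread of the libraries. Adamts5, known with Adamts4 as an aggrecanase, had 4.55, 1.69, 4.07 and 3.09 FPKM in controls and 7.51, 2.92 and 6.34 FPKM in Med23 CKO. KO_117 and KO_218 were above every control and KO_214 was not, with a fold change of 0.58 (SE 0.36) over all libraries and 0.91 without KO_214 (limma unadjusted p = 0.0312). Adamts15 had 0.587, 0.364, 0.921 and 0.845 FPKM in controls and 0.430, 2.90 and 0.292 FPKM in Med23 CKO, with KO_214 alone above the controls.

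The 3 Adamts genes that remove the propeptide of fibrillar procollagen also did not pass. Adamts14 had 5.78, 3.37, 6.91 and 10.1 FPKM in controls and 3.22, 6.55 and 2.19 FPKM in Med23 CKO, a fold change of -0.62 (SE 0.40) that was -0.96 without KO_214 (limma unadjusted p = 0.0455). Adamts3 had 3.91, 0.474, 0.660 and 1.71 FPKM in controls and 0.703, 0.205 and 0.288 FPKM in Med23 CKO, a fold change of -0.79 (SE 0.43, exact permutation p = 0.171). Without WT_116 the fold change of Adamts3 was -1.02 (limma unadjusted p = 0.0485). Its Med23 CKO mean was under 0.5 FPKM, so Adamts3 entered the test through the controls and its direction was fixed by the filter. Adamts2 had 1.19, 1.58, 1.54 and 0.428 FPKM in controls and 0.342, 5.67 and 1.46 FPKM in Med23 CKO. KO_214 was again the highest, and the fold change was 0.40, and -0.23 without it.

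Besides Adamts19, the remaining group of Adamts genes held Adamts12, which had the largest positive fold change outside the Mmp and Adam families. Adamts12, which cuts cartilage oligomeric matrix protein, had 0.437, 0.348, 0.672 and 0.316 FPKM in controls and 1.07, 4.18 and 0.586 FPKM in Med23 CKO. KO_218 lay under WT_213, so the groups overlapped by 1 library. The difference was 0.84 (SE 0.40, limma unadjusted p = 0.0704, exact permutation p = 0.0571), 0.34 without KO_214 and 1.19 without KO_218 (limma unadjusted p = 0.0220). The control mean of Adamts12 was under 0.5 FPKM. It thus entered the test through Med23 CKO, and its direction was fixed by the filter. Adamts10, linked to fibrillin microfibrils, had 11.7, 4.42, 7.33 and 15.8 FPKM in controls and 19.1, 6.93 and 5.90 FPKM in Med23 CKO, without a difference beyond the spread (fold change 0.06, SE 0.50).

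**Figure D5:**
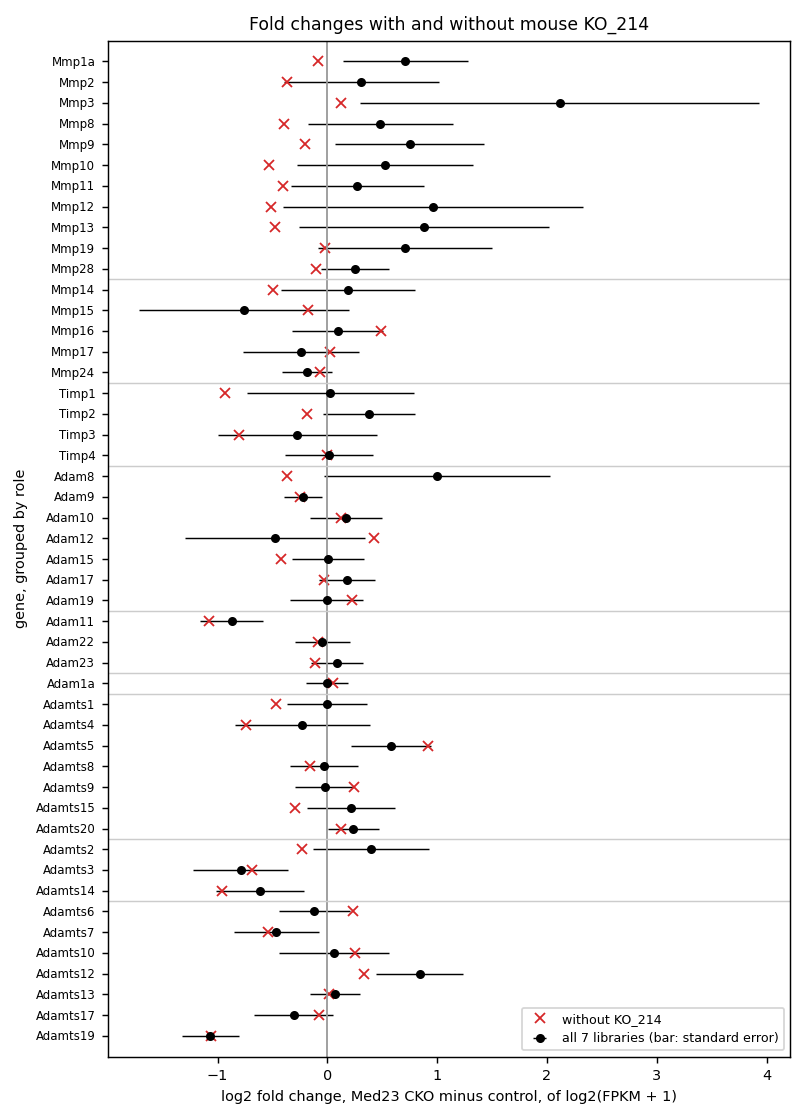
Fold change (difference in mean log2(FPKM + 1), Med23 CKO minus control) of the 48 tested genes, grouped by role. Black points with bars give the value and standard error over 7 libraries and red crosses the value without KO_214; the secreted Mmps at the top move to the left of 0 or close to it, and Adamts19 at the bottom stays near -1.07.

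The 31 members that were not tested had a mean under 0.5 FPKM over the libraries. Of these, 22 were Adam genes, most of them known for sperm and testis, and Adam24, Adam25, Adam26b, Adam39, Adam6a and Adam6b were listed at 0 in all 7 libraries. Adam1a, a relative of the sperm fertilin genes, was the only one of the 21 Adams outside the broadly expressed and synaptic groups to be tested. It had 1.28 to 1.86 FPKM in controls and 1.42 to 1.90 FPKM in Med23 CKO, but Gm42878 shares 63.7% of its exonic bases. Of the untested members with a role in tissue, Adam33 reached 1.15 FPKM in KO_214, Mmp27 reached 1.04 FPKM in KO_214, and Adamts16 had at most 0.752 FPKM in any library.

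Of the genes that regulate these proteases, 1 passed the test. A list of 35 such genes held 33 that were tested, of which limma called 1 as lower and 0 as higher before adjustment (p under 0.05), against 0.996% and 0.502% of all genes tested, and 0 after it. The gene called lower was Plat, tissue-type plasminogen activator, whose product makes plasmin, an enzyme that activates several Mmp precursors. Plat had 62.7, 67.5, 76.4 and 88.8 FPKM in controls and 36.6, 46.6 and 31.1 FPKM in Med23 CKO. The highest Med23 CKO library was below the lowest control. The fold change was -0.94 (SE 0.20, limma unadjusted p = 0.00185, adjusted p = 0.9999, exact permutation p = 0.0286, the smallest possible), and it ran from -1.10 to -0.81 when single libraries were omitted. Plat lies on chromosome 8 of GRCm38 from 22757722 to 22782848. Its counterpart Plau, urokinase, had 6.48, 9.49, 14.5 and 2.85 FPKM in controls and 2.08, 67.6 and 7.83 FPKM in Med23 CKO, with KO_214 high and a fold change of 0.57, or -0.67 without KO_214. The inhibitor Serpine2 (protease nexin-1) had the highest level of the plasminogen genes, at 835.9 ± 244.6 FPKM (SD, n = 4) in controls and 796.6 ± 208 FPKM (SD, n = 3) in Med23 CKO.

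The other regulators overlapped between the groups. Among the partners of Adam10 and Adam17, Frmd8 had the highest level, at 72.9 ± 13.7 FPKM (SD, n = 4) in controls and 52.2 ± 23.1 FPKM (SD, n = 3) in Med23 CKO. The fold change of Frmd8 was -0.55 (SE 0.31), and -0.87 without KO_214, where it passed (limma unadjusted p = 0.0164). Among the proprotein convertases, which cut the precursors of many Adam and membrane-anchored Mmp proteins, Pcsk6 had 12.6 ± 5.39 FPKM in controls and 13.7 ± 8.24 FPKM in Med23 CKO. Reck, a membrane-bound inhibitor of Mmps, had 1.29 to 3.34 FPKM in controls and 2.59 to 3.24 FPKM in Med23 CKO. Cst3, cystatin C, had the highest level of the inhibitor list, although it is a secreted inhibitor of cysteine proteases and not of metalloproteases. Cst3 had 650.3, 771, 782 and 411 FPKM in controls and 490.4, 3108 and 1370.1 FPKM in Med23 CKO. KO_214 and KO_218 were above every control, and its fold change of 1.01 (SE 0.59, exact permutation p = 0.2) did not pass. It was 0.37 without KO_214, and 1.70 without KO_117, where it passed (limma unadjusted p = 0.00435). Among the Adamts-like proteins, which resemble Adamts proteases without the protease domain, Adamtsl3 was highest, at 6.44 ± 3.32 FPKM in controls and 6.74 ± 5.40 FPKM in Med23 CKO.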

How the data were processed

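The authors removed adapters with cutadapt, checked reads with FastQC, ran TopHat with its defaults against mm10, and deposited the FPKM that Cuffdiff gave per gene symbol in each of 7 libraries. The annotation is not given in the sources used here. Each library was matched to its mouse by its title, with 0 columns left unmatched. All 4 deposited control libraries were used, whereas the study's figure legend gives n = 3 per group. The deposited group means and the authors' comparison (fold change, test score, p and q) were not used. FPKM keep no read counts, so the depth is unknown and no count model was used.

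Genes with a mean of at least 0.5 FPKM over the 7 libraries (14151) were analysed as log2(FPKM + 1) with limma 3.58.1 (lmFit, eBayes with trend, R 4.3.3), two-sided, with Benjamini-Hochberg adjustment over all genes tested. Exact permutation tests used all 35 ways to assign 3 of the 7 samples to Med23 CKO (Python 3.11.15). The fit was tested on simulated data. Per-library values are given for Med23, the Timps, the 3 members per family highest in controls, members called or separated, members with a library at least 5 times the median of the other 6, and Mmp9, for regulators called or highest in their list, and for further genes chosen after their values were seen. The members and lists were chosen with earlier results of these data known. The alternatives were a pseudocount of 0.1, no filter, a mean of at least 1 FPKM, quantile normalization, median centring, array weights, a covariate for the leading digit of each mouse number, and each library left out in turn. Coordinates and promoters are from RefSeq (GRCm38.p6) and overlaps from GENCODE M21, both on GRCm38, which is mm10. Protein sequences were not used here.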

Additional observations from a re-analysis of the deposited data

Results flagged for a closer look

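In 3 of the genes tested, 1 of the 4 control libraries lay far from the others on the log2(FPKM + 1) scale, by the share of the control range taken up by the gap to the nearest library. For Adamts8 the share was 0.884, with 0.321 FPKM in WT_116 and 1.36 to 1.55 FPKM in the other controls. For Mmp9 it was 0.916, with 0.586 FPKM in WT_215 and 0.121 to 0.154 FPKM in the others. For Timp1 it was 0.840, with 17.2 FPKM in WT_220 and 34.1 to 38.8 FPKM in the others. Chance alone flags about 1 in 20 groups, and the 3 Med23 CKO libraries were not examined in this way.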

How the results depend on the processing

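No result rests on an adjusted p: limma called 0 members in any alternative. Of the counts at an unadjusted p under 0.05, the 2 lower members became 1 with a mean of at least 1 FPKM, where Adamts19 is no longer tested, and 5 with array weights, where the genes called over the whole table rose too, from 212 to 1080 of 14151. The 0 higher members became 1 with quantile normalization and 1 with median centring. The 1 member with all Med23 CKO values below the controls became 0 with a mean of at least 1 FPKM, 2 with quantile normalization and 2 with median centring, and the 0 above them became 1 with median centring. The 0 higher regulators became 1 with array weights. With single libraries left out these counts ran from 0 to 2 (higher), 1 to 4 (lower), 0 to 2 (all above), 1 to 5 (all below), 0 to 1 (regulators higher) and 1 to 2 (regulators lower). Over all genes tested, 0.318% to 2.50% were then higher and 0.495% to 2.90% lower at an unadjusted p under 0.05 by limma. With fewer libraries, groups that do not overlap are easier to reach for any gene. The share of such genes over all genes was not counted in the alternatives, so these counts say nothing particular about the members. The cause of the changes was not tested.

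Fold changes of some named genes changed sign. With array weights they were -0.20 for Adamts15, -0.11 for Mmp10, -0.54 for Mmp14, -0.19 for Mmp8, -0.28 for Timp1, -0.11 for Timp2 and -0.15 for Timp4. Adamts1 was at 0.0169 with quantile normalization, 0.0212 with median centring and 0.0417 with the covariate, and Adamts9 at 0.000722 with median centring. With single libraries left out, the fold change ran from -0.0574 to 0.37 for Adam10, -1.33 to 0.43 for Adam12, -0.36 to 1.87 for Adam8, -0.47 to 0.27 for Adamts1, -0.29 to 0.50 for Adamts15, -0.74 to 0.41 for Adamts4 and -0.31 to 0.24 for Adamts9. It ran from -0.53 to 1.08 for Mmp10, -0.51 to 2.34 for Mmp12, -0.48 to 1.97 for Mmp13, -0.49 to 0.79 for Mmp14, -0.0841 to 1.12 for Mmp1a, -0.39 to 0.96 for Mmp8 and -0.20 to 1.26 for Mmp9. It ran from -0.94 to 0.83 for Timp1, -0.19 to 0.69 for Timp2, -0.80 to 0.48 for Timp3 and -0.26 to 0.25 for Timp4. Of 375 single-gene results over 27 genes, 327 kept direction and side of the threshold. No paired analysis was possible because the labels do not give the litter of each mouse.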
